A study of Mus musculus with 6 samples.

Results

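The genes described here were the chemokines and chemokine receptors measured in the main olfactory epithelium, the sensory lining of the nose, of mice with lowered miR-200b/a. They were taken from a table of mRNA counts by symbol. A gene was included when its name consisted of Ccl, Cxcl, Ccr, Cxcr or Ackr followed by a number, or was Cx3cl1, Xcl1 or Xcr1. This gave 58 of the 31319 genes in the table, of which 36 were ligands and 22 were receptors. The ligands were 21 CC chemokines, 13 CXC chemokines, Cx3cl1 and Xcl1. The naming rule uses no measured value. All mice were 5-month-old males of C57BL/6 background, and there were 3 libraries labelled miR-200b/a KD and 3 labelled NC. The groups are called KD and NC below. The file headers name the NC columns as controls. The agent that lowered the microRNAs, the cells it reached and the treatment of the NC mice are not stated in the sources used here. Nothing states that each library came from a separate mouse, so the p-values below measure the spread between libraries, which may be technical in part.

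Chemokines are small secreted proteins that bind receptors coupled to G proteins and guide leukocytes along concentration gradients. The CC and CXC families are named for the spacing of their first cysteines. Atypical receptors (Ackr genes) bind chemokines without classical G-protein signalling and take them up or carry them across cell layers. In mucosa, epithelial cells, resident macrophages, vessel walls and recruited leukocytes all make chemokines, and NF-kB and interferon signals are well-known inducers of many of them.

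The miR-200b/a cluster was the target of the knockdown. Its primary transcript was read only incidentally, because poly(A)-selected libraries do not measure mature microRNAs. Mir200a had 54, 3 and 52 counts in KD libraries 1 to 3 and 200, 87 and 84 in NC libraries 1 to 3. Mir200b had 10, 0 and 28 counts in KD and 76, 54 and 47 in NC. For both genes the KD and NC counts did not overlap, with KD lower. The mature microRNAs are shown because their seeds (bases 2 to 8, in capitals) define the target sites searched for below. They come from RefSeq (GRCm38.p6) and lie on the minus strand of chromosome 4, miR-200b-3p at chr4:156055685-156055706 and miR-200a-3p at chr4:156054911-156054932.
mmu-miR-200b-3p: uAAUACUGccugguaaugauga
mmu-miR-200a-3p: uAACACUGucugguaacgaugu

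Library totals ran from 15704791 to 17618540 counts. At these depths a floor of 3 counts corresponded to 0.153 to 0.230 CPM (counts per 1000000 reads). Markers of mature olfactory sensory neurons were present, but their summed level differed widely, from 121 CPM in KD library 2 to 14133 CPM in NC library 1. KD library 2 and NC library 1 stood apart from the rest of their groups, and the main results are given with and without them. Omp, the marker protein gene of mature olfactory neurons, read 1419, 11.4 and 1843 CPM in KD against 4280, 3394 and 3471 CPM in NC. In whole tissue, fewer cells of a type and less RNA per cell cannot be told apart.

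Most chemokine and receptor genes had a higher mean in KD than in NC, but no single gene passed the test over the whole table. Of the 58 genes, 51 passed the filter on low counts and were tested. The other 7 (Ccl1, Ccl24, Ccl27b, Ccr1l1, Ccr3, Cxcl15 and Xcl1) did not pass it. The fitted log2 fold change, KD over NC, was above 0 for 45 of the 51 and below 0 for 6, against 50.6% above and 49.4% below 0 among all 18444 tested genes. Its median was 1.18 over the 51 genes and 0.01 over all genes. With edgeR and Benjamini-Hochberg adjustment over all tested genes, 0 of the 51 had an adjusted p under 0.05, and the same was true of all 18444 genes (0% called). Limma-voom also called 0. The smallest adjusted p among the 51 was 0.276.

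At an unadjusted p under 0.05, 5 of the 51 were higher in KD (Cxcl13, Ackr2, Ccl9, Cxcr5 and Cx3cl1) and 1 was lower (Ccl27a). The background at that threshold was 8.70% of all tested genes higher and 9.25% lower, so the 5 genes were a share close to background. The count of 5 was sensitive to single libraries. It was 22 without NC library 3, 9 without NC library 1, and 3 without either KD library 1 or KD library 2. The 9 include Ccl24, which passed the filter in that fit but not in the main one. The share of all genes was not computed for these fits, so their counts cannot be set against a background. Groups that did not overlap, with every KD library above every NC library, were found for 20 of the 51 genes, against 15.3% of all tested genes. This count was 36 without NC library 3 and 31 without KD library 3. Leaving out a library can only keep or raise such a count, for any set of genes. The share of all genes was not computed there, so 36 and 31 have no background. With all libraries, the reverse order was found for 1 gene, against a background of 18.6%. DESeq2 with the same filter called 0.821% of genes higher and 1.07% lower, and 1 chemokine gene, Cxcl13, was among them. In the authors' deposited table, 10 of the chemokine and receptor genes had an unadjusted p under 0.05 and were higher, against 6.30% of its genes, and 1 was lower, against 7.87%.

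**Figure D1:**
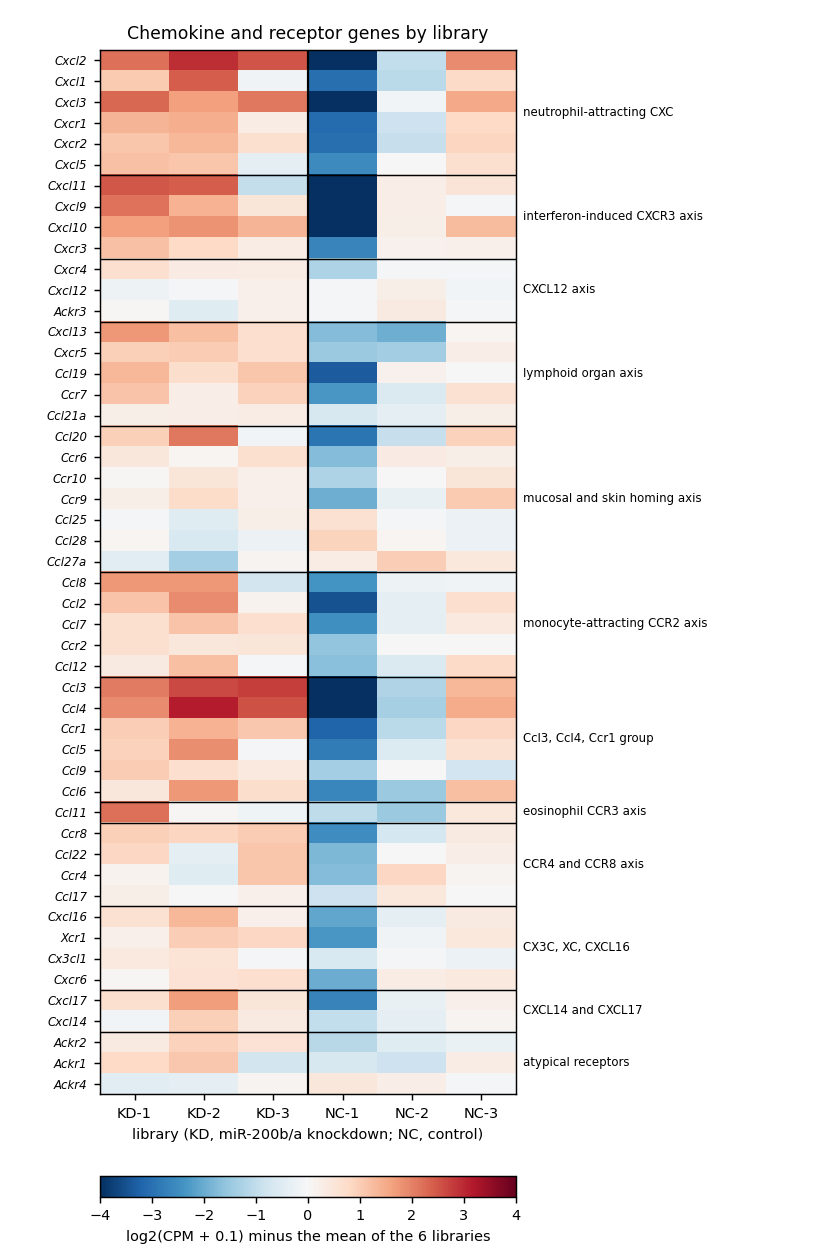
Level of 50 of the tested genes in the 6 libraries, as log2(CPM + 0.1) minus the mean of the gene over the 6 libraries; rows are genes grouped by role, columns are libraries, red is above and blue below the gene's mean. NC-1 is the lowest column for 41 of the 50 genes drawn, while NC-3 resembles the KD columns in many rows.

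The NC libraries differed among themselves more than the KD libraries did. NC library 1 was the lowest of the 6 for 42 of the 51 genes, against 32.5% of all tested genes. The median gene stood 1.97 log2 units below its own mean in that library (a value of -1.97), compared with -0.29 in NC library 2 and 0.37 in NC library 3. The 3 KD medians were 0.80, 0.94 and 0.37. NC library 3 thus lay at the level of KD library 3. It reached or passed the lowest KD library for 31 of the 51 genes, NC library 2 did so for 14 and NC library 1 for 7. A range of more than 10-fold within NC was seen for 17 genes, compared with 1 gene within KD. Without NC library 1, 43 of the 51 were above 0 (background 51.4%) and the median log2 fold change was 0.73. Without both NC library 1 and KD library 2 the median was 0.52.

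Levels were compared between genes only after division by exon length, in CPM per kilobase. The most abundant transcripts were Cxcl17, a mucosal CXC chemokine (mean of 394 CPM per kilobase over the 6 libraries), and the neutrophil attractants Cxcl5 (187) and Cxcl2 (152). The macrophage inflammatory proteins Ccl3 (138) and Ccl4 (116) came next, ahead of Ccl21a (65.7), which guides dendritic cells and naive lymphocytes. The highest receptor was Cxcr4 (34.4). The first 6 kept their places when the longest transcript replaced the exon union as the length. Neighbouring places are not separated by the spread. In KD, Cxcl5 stood at 246 ± 118, Cxcl2 at 246 ± 64.7 and Ccl3 at 235 ± 55.6 CPM per kilobase (SD, n = 3). In NC the same genes stood at 129 ± 98.3, 58.1 ± 83.2 and 40.2 ± 55.1. A level under 1 CPM per kilobase was found for 12 of the 58 genes.

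**Figure D2:**
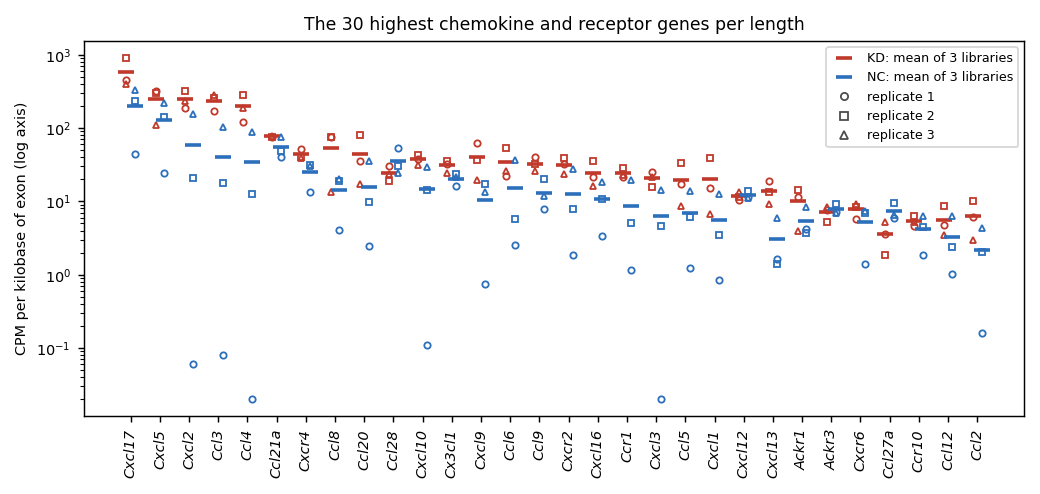
CPM per kilobase of exon (log axis) for the 30 genes with the highest mean; red symbols are KD libraries, blue symbols NC libraries, marker shapes are replicates 1 to 3 and bars are group means, with values of 0 drawn at 0.02. Cxcl17 is highest, at 587 in KD and 201 in NC, and the lowest symbols of many genes belong to NC replicate 1.

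Cxcl13 had the largest fitted difference among the genes with a small p. It is the B cell attractant of lymphoid follicles and the ligand of Cxcr5, and lies at chr5:95956951-95961068 (GRCm38). Cxcl13 read 22.0, 15.3 and 10.5 CPM in KD against 1.91, 1.63 and 6.89 in NC, so the groups did not overlap. The means were 15.9 ± 5.77 and 3.48 ± 2.96 CPM (SD, n = 3), and the log2 fold change was 2.19 (SE 0.641, unadjusted p = 0.013, adjusted p = 0.276, edgeR). DESeq2 gave Cxcl13 an adjusted p of 0.0459. Its unadjusted p in edgeR stayed under 0.05 when each library was left out in turn, with log2 fold changes from 1.82 to 3.17. With the leukocyte level as a covariate, the log2 fold change of Cxcl13 was 1.45 (unadjusted p = 0.0813).

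The other genes of the lymphoid organ axis stood on the same side. Cxcr5, the receptor of Cxcl13 on B cells and follicular T cells, read 3.74, 3.91 and 3.09 CPM in KD against 0.617, 0.664 and 2.30 in NC. Its log2 fold change was 1.58 (SE 0.577, unadjusted p = 0.0327, adjusted p = 0.276, edgeR), and the lowest KD library lay above the highest NC library. Ccl19, a ligand of Ccr7 in lymph nodes, read 5.55, 3.52 and 4.74 CPM in KD and 0.123, 2.45 and 2.19 in NC, again without overlap. Ccl21a, the second Ccr7 ligand, was nearly constant in KD at 65.9, 66.0 and 68.5 CPM and read 35.2, 42.4 and 65.0 in NC. The receptor Ccr7, carried by mature dendritic cells and naive T cells, overlapped between the groups, at 12.0, 6.51 and 10.2 against 0.987, 3.58 and 8.24 CPM. All 5 tested genes of this axis were above 0 (median 1.53, or 0.99 without NC library 1, adjusted p from 0.276 to 0.369). For 4, every KD library lay above every NC library, against 15.3% of all tested genes. Ccl21a counts among these 4 by a narrow gap, 65.9 CPM in KD library 1 against 65.0 in NC library 3. Its raw counts overlapped, with 862 in KD library 2 and 1160 in NC library 3. Ccl19, Ccl21a and Ccl27a have near-identical copies in the mouse genome, so their counts depend on how shared reads were assigned and are uncertain.

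The neutrophil-attracting CXC ligands and their receptors Cxcr1 and Cxcr2 were all on the high side of KD, with a wide spread. All 6 tested genes were above 0 (median 1.61, or 1.04 without NC library 1). NC library 1 was the lowest library for all 6, as for 32.5% of all tested genes. For 2, the KD libraries all lay above the NC libraries, against 15.3% of all tested genes. Cxcl2 had 6667, 8525 and 8744 counts in KD against 2, 840 and 5661 in NC. Its log2 fold change of 2.08 carried an SE of 1.74 (unadjusted p = 0.276, edgeR). Cxcl3 had 1491, 718 and 1371 counts in KD against 0, 315 and 899 in NC. For both genes NC spanned from almost no reads to the edge of the KD range. Cxcl5, made by epithelial cells in many mucosae, overlapped between groups, at 601, 567 and 204 CPM in KD and 44.8, 266 and 408 in NC. The receptor Cxcr2 had 1712, 1542 and 1315 counts in KD and 92, 476 and 1520 in NC, with NC library 3 inside the KD range. Cxcr2 and Cxcl3, like Cxcl1, Cxcl11, Ccr1, Ccr2, Ccr3, Ccr8, Cxcr1, Cxcr3 and Ccl25, were outside the rule for named genes and were named after their values were seen.

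Cxcl1, Cxcl2, Cxcl3 and Cxcl5 lie within one cluster on chromosome 5 (GRCm38), from chr5:90759360 (Cxcl5) to chr5:90905938 (Cxcl2). All 8 tested chemokine genes of chromosome 5 were above 0 (median 1.90), as were all 13 of chromosome 11 (median 1.31), which carries most CC ligands. Promoters of 44 of the 58 genes were matched in RefSeq (GRCm38.p6), as the 250 bases before to 50 bases after the start. They were searched on both strands for the NF-kB motif GGGNNTTTCC. It occurred in 6 of 44 genes (13.6%: Ccl20, Ccl9, Ccr3, Cxcl1, Cxcl2 and Cxcl3), compared with 512 of 27025 genes with a promoter in the table (1.89%). The windows below are printed because 3 of these 6 genes are neighbours in this cluster and hold the same letters. The motif is in capitals on the gene's strand, reversed for Ccl20 and Ccl9. The windows are chr5:90786003-90786062 for Cxcl3, chr5:90891149-90891208 for Cxcl1, chr5:90903777-90903836 for Cxcl2, chr1:83116661-83116720 for Ccl20 and, on the minus strand, chr11:83578637-83578696 for Ccl9.
Cxcl3 promoter: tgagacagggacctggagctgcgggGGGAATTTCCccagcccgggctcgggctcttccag
Cxcl1 promoter: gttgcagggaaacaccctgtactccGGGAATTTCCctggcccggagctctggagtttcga
Cxcl2 promoter: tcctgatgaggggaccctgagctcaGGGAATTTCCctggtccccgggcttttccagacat
Ccl20 promoter: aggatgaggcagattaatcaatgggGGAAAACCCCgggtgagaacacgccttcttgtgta
Ccl9 promoter: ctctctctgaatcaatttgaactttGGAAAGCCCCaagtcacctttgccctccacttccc

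The motif started 73, 71 and 97 bases before the start of Cxcl3, Cxcl1 and Cxcl2. Cxcl1 and Cxcl2 each held a second match, which overlaps the window shown. Such a match describes the letters only, and binding was not measured. Cxcl1, a ligand of Cxcr2, read 28.8, 73.9 and 12.5 CPM in KD and 1.60, 6.54 and 23.7 in NC, and the groups overlapped.

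Genes of the CXCR3 axis, in which the interferon-induced ligands Cxcl9, Cxcl10 and Cxcl11 attract activated T cells, were likewise on the high side. All 4 were above 0 (median 1.64, or 1.08 without NC library 1, adjusted p from 0.322 to 0.532). KD and NC did not overlap for 3 of them, with KD higher, against 15.3% of all tested genes. Cxcl9 read 191, 111 and 59.2 CPM in KD against 2.22, 51.6 and 40.4 in NC, with a fitted log2 fold change of 1.94 (SE 1.02, unadjusted p = 0.105, edgeR). Cxcl10 had 1479, 1253 and 1264 counts in KD and 4, 625 and 1186 in NC. In raw counts NC library 3 lay just under the KD libraries, while NC library 1 was near 0. The receptor Cxcr3, also lowest in NC library 1, read 12.5, 9.65 and 6.89 CPM in KD and 0.802, 6.18 and 6.45 in NC, without overlap. Cxcl11 is annotated as a polymorphic pseudogene. Cxcl10 and Cxcl11 overlap Art3 on the other strand, and reads of the genes cannot be told apart without strand.

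The interferon response element TTTCNNTTTC was found in the promoters of 3 of the 44 genes (6.82%: Ccl19, Cxcl10 and Cxcl14), compared with 3.99% of all genes. The window of Cxcl10 (chr5:92349068-92349127, minus strand) is shown because Cxcl10 is a well-known interferon target, with the reversed motif in capitals, 213 bases before the start. The gamma-activated site TTCNNNGAA occurred in 4 of the 44 (9.09%), near the 9.55% of all genes.
Cxcl10 promoter: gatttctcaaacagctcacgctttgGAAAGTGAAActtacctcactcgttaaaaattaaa

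The macrophage inflammatory proteins Ccl3 and Ccl4, which draw monocytes, macrophages and effector T cells, had the largest fitted differences of the 51 genes. Ccl3 had 2266, 2539 and 3880 counts in KD against 1, 263 and 1408 in NC (log2 fold change 2.55, SE 1.55, adjusted p = 0.367, edgeR). Ccl4, its neighbour on chromosome 11, had 1357, 2438 and 2269 counts against 0, 164 and 1050 (2.54, SE 1.60, adjusted p = 0.375). Within NC both genes spanned from at most 1 count to more than 1000. Ccl9, a ligand of Ccr1 at chr11:83572919-83578636, varied less, at 121, 97.0 and 79.9 CPM in KD against 23.6, 60.7 and 35.6 in NC. Its means were 99.4 ± 20.8 and 40.0 ± 18.9 CPM (SD, n = 3), and its log2 fold change was 1.31 (SE 0.368, unadjusted p = 0.0111, adjusted p = 0.276, edgeR). The Ccl9 groups did not overlap, and the unadjusted p stayed under 0.05 without any 1 library. The receptor Ccr1 read 60.7, 80.7 and 64.9 CPM in KD and 3.27, 14.5 and 55.3 in NC, also without overlap.

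**Figure D3:**
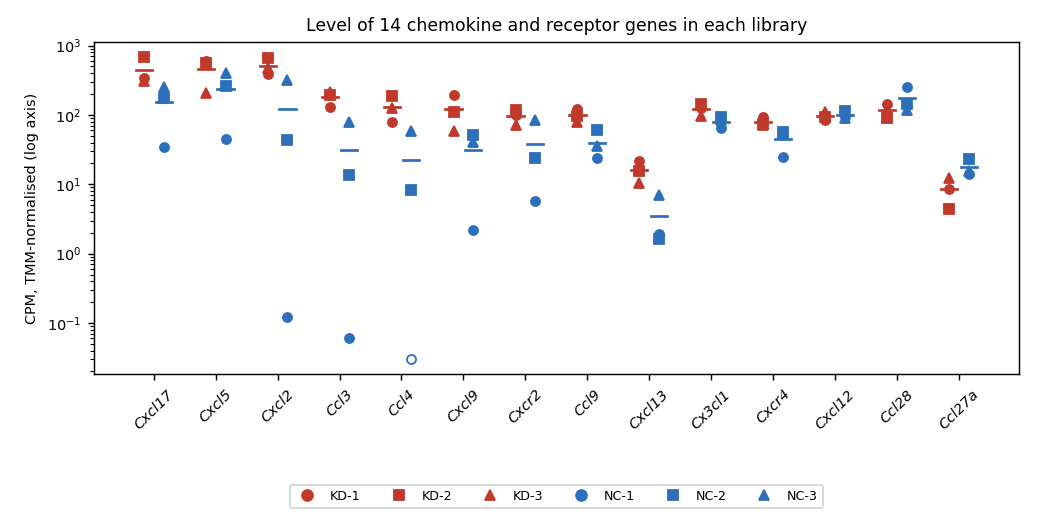
Levels in CPM on a log axis for 14 genes, library by library; red is KD, blue is NC, circles, squares and triangles are replicates 1 to 3, bars are group means and the open circle is a count of 0 drawn at 0.03. For Cxcl2, Ccl3 and Ccl4 the NC symbols span from almost no reads to 317, 78.9 and 58.9 CPM, whereas Cxcl12 shows the same range in both groups.

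The monocyte-attracting CCR2 axis was similar in direction and smaller in level. All 5 genes were above 0 (median 1.30, or 0.82 without NC library 1). KD lay above NC without overlap for 2 of them, against 15.3% of all tested genes. Ccl8, the most abundant per length of the ligands listed under this axis, had 652, 497 and 124 counts in KD. It had 34, 192 and 184 in NC, so KD library 3 lay within NC. The listing of Ccl8 under Ccr2 was a choice, and which receptor it uses was not examined. Ccl12 overlapped too, at 2.57, 4.67 and 1.87 against 0.555, 1.28 and 3.42 CPM. The receptor Ccr2, carried by inflammatory monocytes, was steady in KD at 36.8, 32.2 and 33.3 CPM. It read 7.77, 23.7 and 23.7 CPM in NC, below every KD library, with a log2 fold change of 0.89 (SE 0.415, unadjusted p = 0.0736, edgeR), or 0.53 without NC library 1.

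Eosinophil and type 2 chemokines were rare. Ccl24, an eosinophil attractant, was not tested, since it failed the filter. It had 136, 25 and 3 counts in KD and 0, 0 and 1 in NC, so most reads came from KD library 1. DESeq2 with no filter on low counts, an alternative chosen after the data were seen, gave Ccl24 an adjusted p of 0.00513 (0.646% of genes higher by that fit). Ccl11, the classical eotaxin, showed the same pattern of 1 high library, at 7.77, 1.69 and 1.43 CPM in KD and 0.740, 0.511 and 2.19 in NC. The receptor Ccr3 had at most 15 counts in a library. In the CCR4 and CCR8 axis of regulatory and type 2 T cells, 4 of 4 genes were above 0 (median 0.64). Only 1, Ccr8, was higher in KD without overlap, against 15.3% of all tested genes. Without NC library 1, 2 of the 4 were above 0 and the median was 0.22. The leading ligands listed under this axis, Ccl22 (11.7, 5.06 and 14.1 against 1.79, 6.39 and 7.79 CPM) and Ccl17 (1.64, 1.38 and 1.60 against 0.740, 1.89 and 1.40 CPM), overlapped between the groups.

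Cx3cl1, the membrane-bound ligand that tethers monocytes and microglia, had the smallest standard error of the 6 genes with a low p. It lies at chr8:94772009-94782427 and read 127, 142 and 95.1 CPM in KD against 64.4, 92.4 and 83.3 in NC. The means were 121 ± 23.9 and 80.0 ± 14.3 CPM (SD, n = 3) and the log2 fold change was 0.60 (SE 0.217, unadjusted p = 0.0312, adjusted p = 0.276, edgeR). The lowest KD library was just above the highest NC library. The other transmembrane chemokine, Cxcl16, overlapped, at 65.4, 108 and 49.2 CPM against 10.1, 32.7 and 54.9. Cxcl17, the most abundant transcript of the set and a chemokine of mucosal epithelium, read 342, 691 and 306 CPM in KD and 34.1, 176 and 249 in NC. Its groups did not overlap, with a log2 fold change of 1.54 (SE 0.725, unadjusted p = 0.0759, edgeR). Cxcl14, an epithelial chemokine, read 5.61, 11.6 and 7.83 CPM in KD and 3.02, 4.70 and 6.56 in NC, with overlap.

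Of the 3 genes of the CXCL12 axis, 2 lay near 0. Cxcl12, the stromal ligand that retains stem cells and guides axons and leukocytes, read 84.4, 94.7 and 111 CPM in KD and 92.6, 115 and 91.4 in NC. Its log2 fold change was -0.04 (SE 0.171), with means of 96.8 ± 13.5 and 99.5 ± 13.1 CPM (SD, n = 3). The scavenging receptor Ackr3 likewise overlapped, at 25.5, 17.4 and 28.1 against 23.8, 31.2 and 23.5 CPM, with a log2 fold change of -0.14 (SE 0.229). The signs of both are not settled: without KD library 2 the log2 fold changes were 0.000036 for Cxcl12 and 0.06 for Ackr3. The signalling receptor Cxcr4, which leukocytes carry widely, lay higher in KD, at 92.8, 73.1 and 71.3 CPM in KD and 24.5, 56.2 and 55.0 in NC. Every KD library was above every NC library for Cxcr4 (log2 fold change 0.80, SE 0.334, unadjusted p = 0.051, adjusted p = 0.279, edgeR). Without NC library 1 it was 0.51.

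The mucosal and skin homing axis held 3 of the 6 genes below 0. Of its 7 tested genes, 4 were above 0 and 3 below (median 0.34). The median was 0.0059 without NC library 1, and -0.33 with the leukocyte level as a covariate, where 2 of 7 were above 0. Ccl27a, a skin-type chemokine and ligand of Ccr10, read 8.64, 4.44 and 12.5 CPM in KD and 14.1, 22.9 and 15.5 in NC. It was the 1 gene of the set that was lower in KD without overlap, with a log2 fold change of -1.04 (SE 0.409, unadjusted p = 0.0431, adjusted p = 0.276, edgeR). Without KD library 2 the log2 fold change of Ccl27a was -0.71. Its gene (chr4:41769467-41774247) overlaps Il11ra1 on the other strand, so its reads are uncertain for this reason as well. Ccl28, the second Ccr10 ligand, made by mucosal and glandular epithelium, read 146, 90.6 and 116 CPM in KD and 257, 145 and 117 in NC. Its log2 fold change was -0.56 (SE 0.344), or -0.15 without NC library 1, and the groups overlapped. Ccl25 (8.70, 6.43 and 10.8 against 13.9, 8.68 and 7.62 CPM) and the receptor Ccr10 (137, 143 and 163 against 52, 149 and 195 counts) overlapped too. Ccl20, the epithelial ligand of Ccr6, read 51.3, 115 and 24.6 CPM in KD and 3.45, 14.1 and 50.2 in NC.

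Of the 3 tested atypical receptors outside the CXCL12 axis, 2 were above 0 and 1 was below. Ackr2, a scavenger of inflammatory CC chemokines on lymphatic vessels, lies at chr9:121898355-121911074 and read 3.09, 4.60 and 3.58 CPM in KD against 1.05, 1.69 and 1.96 in NC. Its log2 fold change was 1.26 (SE 0.359, unadjusted p = 0.0121, adjusted p = 0.276, edgeR) and its groups did not overlap. Ackr1, which carries chemokines across venular endothelium, read 16.4, 20.1 and 5.62 CPM in KD and 5.92, 5.26 and 11.6 in NC. Ackr4, a scavenger of Ccr7 ligands, read 7.18, 7.51 and 10.3 CPM in KD and 13.3, 11.5 and 9.14 in NC, with a fitted log2 fold change of -0.44 (SE 0.251). Both overlapped between the groups. Endothelial markers were also higher in KD, with summed levels of 447, 647 and 355 CPM against 147, 218 and 307 in NC. The lymphatic endothelial list read 129, 183 and 113 against 47.7, 75.8 and 91.0 CPM. Its part in the Ackr2 result was not tested.

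**Figure D4:**
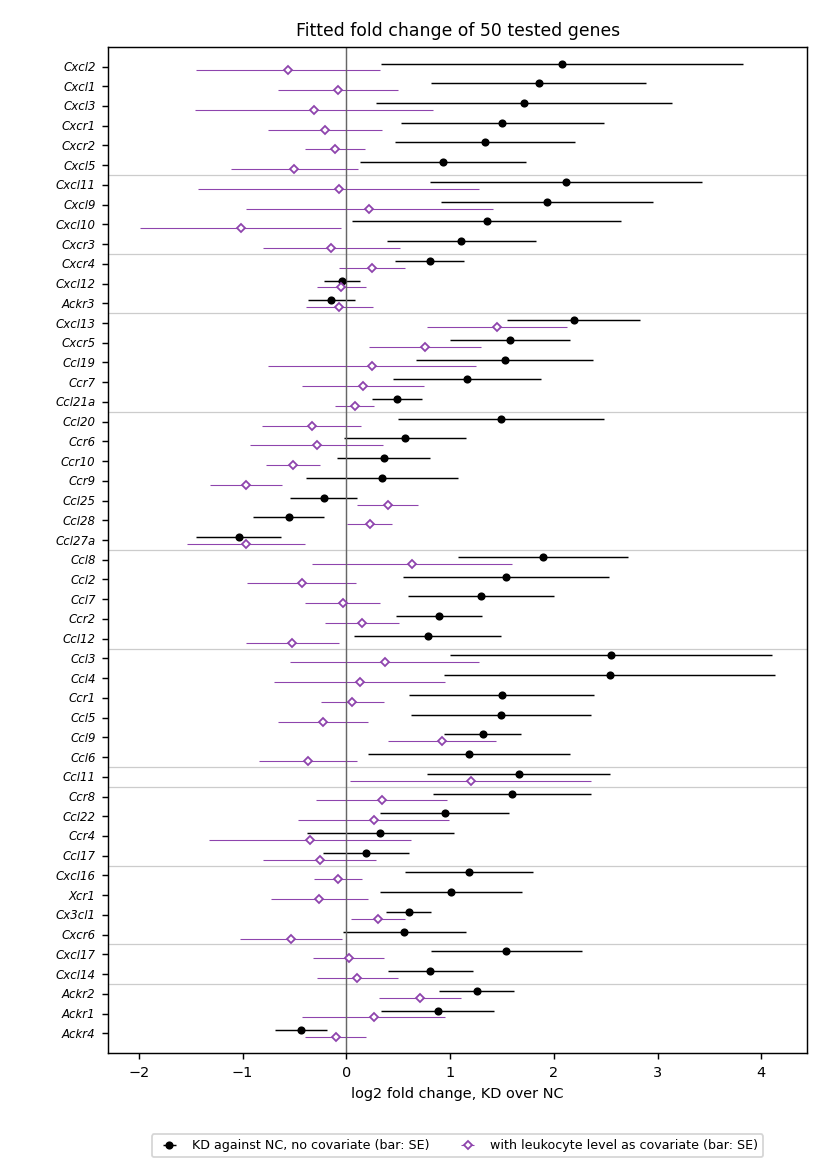
Fitted log2 fold change, KD over NC, of 50 of the tested genes with its standard error, grouped by role; black points come from the fit without a covariate and purple diamonds from the fit with the leukocyte level as a covariate. Without the covariate 44 points are above 0 and with it 23, and the median of the points drawn goes from 1.18 to -0.06.

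The sum of the leukocyte list rose from NC library 1 through 2 to 3, as the chemokine sum did, with both highest in KD library 2. The order differed for single cell types, where NC library 3 lay above KD library 3 for the macrophage and B cell sums. The summed level of 10 leukocyte markers such as Ptprc (CD45) was 1395, 1943 and 1395 CPM in KD and 292, 662 and 1211 in NC. All 10 were above 0 (median log2 fold change 1.10) and none was at 0 counts. Ptprc itself had 3544, 2630 and 2849 counts in KD and 374, 1636 and 2038 in NC. The 9 neutrophil markers summed to 17944, 34677 and 13894 CPM in KD and 1482, 7404 and 9504 in NC, mostly through Ltf, which glands also make. Ltf alone read 16160, 30317 and 12309 CPM in KD and 1410, 7147 and 7377 in NC, so the gap between the groups in this sum follows Ltf. Of the 9 genes, 2 had groups that did not overlap, with KD higher, against 15.3% of all tested genes. Counts of the granulocyte gene S100a8 were 4946, 9562 and 3644 in KD against 42, 399 and 5292 in NC. Macrophage and monocyte markers read 2958, 5999 and 1451 against 502, 820 and 2640 CPM. That sum was mostly Lyz2, at 2532, 5425 and 1130 against 374, 591 and 2354 CPM, so it says little of the other genes. Of the 10 genes of that list, 5 had groups that did not overlap, with KD higher, against 15.3% of all tested genes. Lyz2 was not among the 5. T cell markers read 107, 142 and 112 against 15.4, 74.7 and 90.2 CPM, and B cell markers 195, 335 and 146 against 25.8, 121 and 203 CPM. NC library 1 was the lowest library for every one of these sums. Fibroblast markers were not lowest there, at 4655, 2153 and 3879 CPM in KD and 4552, 3043 and 2637 in NC. Dendritic cell markers overlapped between the groups, from 46.1 to 89.0 CPM.

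**Figure D5:**
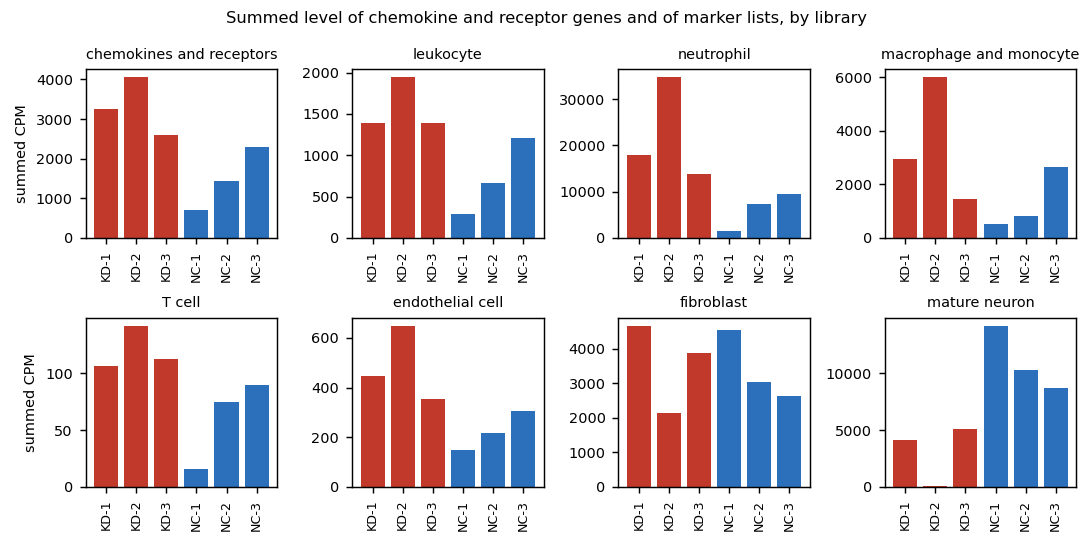
Summed CPM of the chemokine and receptor genes and of 7 cell type marker lists in each library (red KD, blue NC). The chemokine and receptor sum (3245, 4051 and 2609 in KD, 715, 1427 and 2295 in NC) and the leukocyte, neutrophil and T cell sums are lowest in NC-1, where the mature neuron sum is highest.

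When the mean log2 level of the leukocyte list entered the model as a covariate, 23 of the 51 genes were above 0 (background 47.8%) and the median log2 fold change was -0.07. None of the 51 was higher in KD at an unadjusted p under 0.05 in that fit. The 6 neutrophil CXC genes, with a median of 1.61 without the covariate, had a median of -0.26 with it, and the CXCR3 axis went from 1.64 to -0.11. The 6 genes with an unadjusted p under 0.05 in the main fit kept their signs. With the covariate they read 1.45 (SE 0.678) for Cxcl13, 0.92 (SE 0.519) for Ccl9 and 0.71 (SE 0.398) for Ackr2. Cxcr5 read 0.76 (SE 0.540), Cx3cl1 0.31 (SE 0.261) and Ccl27a -0.97 (SE 0.565). The smallest unadjusted p of these genes in that fit was 0.0813, for Cxcl13 (edgeR). The leukocyte sums of KD and NC did not overlap, so group and leukocyte level cannot be told apart with 6 libraries. With the mature neuron level as the covariate the median was 0.76.

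Genes that act with the chemokines were read from 4 lists, all of which had lower medians with the leukocyte level as a covariate. Among chemokine-related genes whose symbols fall outside the naming rule, 7 of 7 were above 0 (median 1.21, or 0.35 with that covariate). Of the 7, 1 was higher at an unadjusted p under 0.05, against 8.70% of all tested genes. That gene was Gpr35, a receptor that has been proposed for Cxcl17, at 20.7, 19.8 and 24.7 CPM in KD and 4.81, 9.14 and 14.3 in NC (log2 fold change 1.21, SE 0.392). Ppbp, a platelet chemokine, had 913, 64 and 195 counts in KD and 1, 86 and 63 in NC, with KD library 1 far above the rest.

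The list of receptor signalling components (G-protein subunits, kinases, arrestins and small GTPases) was above 0 for 30 of 32 genes (median 0.74). With the leukocyte covariate 24 were above 0 and the median was 0.17. At an unadjusted p under 0.05, 11 were higher and 1 was lower, against 8.70% and 9.25% of all tested genes. Jak2, a cytokine receptor kinase, read 140, 130 and 125 CPM in KD and 61.4, 83.6 and 75.0 in NC (log2 fold change 0.85, SE 0.162, unadjusted p = 0.0017, adjusted p = 0.276, edgeR), and DESeq2 gave it an adjusted p of 0.00479. Elmo1, an adaptor for Rac activation in migrating cells, read 30.5, 37.5 and 31.3 CPM against 15.2, 19.7 and 22.3 (log2 fold change 0.79, SE 0.189). Gnb1, a G-protein beta subunit that neurons also use, was lower in KD without overlap, with 12962, 3983 and 15632 counts against 27512, 26347 and 21249 (log2 fold change -1.14, SE 0.431). Plcb3, a phospholipase, was the other gene below 0, at -0.12 (SE 0.139).

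The list of NF-kB and STAT pathway genes held transcription factors, the kinase Ikbkb, the NF-kB inhibitors Nfkbia and Tnfaip3, and the related regulator Nfkbiz. It was above 0 for 12 of 13 genes (median 1.30, or 0.45 with the leukocyte covariate). Of these 13, 8 were higher at an unadjusted p under 0.05, against 8.70% of all tested genes. The 8 include Tnfaip3 and Nfkbiz, which are outside the rule for named genes. Groups did not overlap for 11 of the 13, against 15.3%. Rel, an NF-kB subunit of lymphocytes and myeloid cells, had 561, 489 and 691 counts in KD and 146, 277 and 327 in NC (log2 fold change 1.38, SE 0.271, unadjusted p = 0.002, adjusted p = 0.276, edgeR). DESeq2 gave Rel an adjusted p of 0.00563. Stat6, which carries the signal of Il4, read 140, 175 and 138 CPM against 68.6, 86.5 and 103 (log2 fold change 0.81, SE 0.203). Ikbkb, a kinase that activates NF-kB, read 89.5, 98.3 and 89.1 against 107, 85.4 and 92.3 CPM and was the 1 gene below 0, at -0.04.

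Cytokines known to induce chemokines were mixed. Of 18, 14 were tested and 10 were above 0 (median 1.30, or 0.057 with the leukocyte covariate). Of the 14, 1 was higher and 2 were lower at an unadjusted p under 0.05, against 8.70% and 9.25% of all tested genes. Tgfb1 read 80.4, 125 and 105 CPM in KD and 19.4, 44.8 and 69.3 in NC (log2 fold change 1.22, SE 0.457). Ifng, the inducer of the Cxcr3 ligands, had 21, 30 and 15 counts against 1, 9 and 13. Il22, a lymphocyte cytokine that acts on epithelia, had 2, 1 and 9 counts in KD against 34, 15 and 30 in NC (log2 fold change -2.62, SE 0.750, adjusted p = 0.276, edgeR). Il4, a type 2 cytokine, had 112, 40 and 128 counts against 267, 220 and 202 (-1.22, SE 0.373). Both were lower in KD without overlap.

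The longest 3′ UTR in the annotation was searched, gene by gene, for 7-base matches to the seeds printed above, CAGTATT for miR-200b-3p and CAGTGTT for miR-200a-3p. Of the 51 tested genes, 6 held a miR-200b-3p match (11.8%) and 7 a miR-200a-3p match (13.7%). Among 15786 tested genes with an annotated 3′ UTR, the shares were 14.9% and 19.7%. At least 1 of the matches was found in 11 of 51 chemokine and receptor genes (21.6%) and in 29.0% of all. Their UTRs were shorter, with a median of 769 bases compared with 1175. The median log2 fold change was 1.18 for the 11 genes with a match and 1.21 for the others. Of the 6 genes with an unadjusted p under 0.05, Ccl9 and Cx3cl1 held a match. Their sites are shown with those of Cxcl2 and Cxcl3, with the match in capitals, at UTR positions 416, 1229, 1291 and 302.
Ccl9 3′ UTR site: agttagtagtatttaCAGTATTctttataa
Cx3cl1 3′ UTR site: tcctgtctctgagagCAGTGTTcacgccaa
Cxcl2 3′ UTR site: ctgttatttaggtttCAGTGTTtgtaaact
Cxcl3 3′ UTR site: ttgctatttctgaggCAGTATTccttggct

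Cxcl12, whose level was alike in the 2 groups, held 2 miR-200a-3p matches. The sites are matches of letters, and binding of a microRNA was not measured.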

How the data were processed

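Main olfactory epithelium mRNA was sequenced from 3 KD and 3 NC libraries with poly(A) selection, per the labels' protocols. The authors deposited raw counts per gene and library, per the file headers, beside a normalised signal that could be recomputed from the counts to within 0.0142%, a log2 fold change and p-values. The submitters' processing notes list Bowtie2 2.2.3, DESeq, DESeq2, HISAT2 2.1.0, HTSeq 0.6.0, TopHat2 and the build GRCm38 without saying what each did. Neither the annotation release nor the strand setting is stated in the sources used here, and 18 of the 58 genes overlap another annotated gene.

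Samples were grouped by their titles. The whole table of 31319 genes was fitted with edgeR 4.0.16 (TMM factors, filterByExpr, quasi-likelihood test, two-sided) in R 4.3.3, and 18444 genes were tested with Benjamini-Hochberg adjustment and a threshold of 0.05. Fold changes are KD over NC. The common biological coefficient of variation was 40.9%, which with 3 libraries a group limits the precision. CPM were TMM-normalised. Exon lengths and UTRs came from GENCODE, and promoters and microRNAs from RefSeq. Alternatives were other normalization, DESeq2 1.42.0, limma-voom 3.58.1, no filter, a replicate block, 2 covariates, and leaving out libraries. The code was tested on simulated data with a smaller spread between libraries than these data. That test checks the code and does not show how well changes are found here. The members and lists were chosen with earlier results of these data known. Named genes were those with an unadjusted p under 0.05 or a DESeq2 call, the 2 most abundant per length in each of 12 role groups, and 14 chosen by function. From each of 4 pathway lists, up to 2 per direction with the smallest p were named. Ccl21b, Ccl21c and Ccl26 of the role lists had no row under these names. Of 16 marker lists, those not described in the results are summarised in the closing section. The values of 1 gene of the set enter the counts but are not reported here.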

Additional observations from a re-analysis of the deposited data

How the results depend on the processing

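All 45 positive and 6 negative directions among the tested genes come from 3 libraries a group, and NC libraries that differ 10-fold in many genes limit what can be called; low-count genes such as Ccl24 and Ccr3 are limited by depth as well. RLE normalization changed no direction of the 51 tested fold changes named in the text. These include genes of the pathway lists, such as Ikbkb, and are not the same as the 51 tested chemokine and receptor genes. Over the whole table the called genes numbered 347 with DESeq2, 410 with DESeq2 and no filter on low counts (chosen after the data were seen) and 3 without KD-2 and NC-1, compared with 0 in edgeR as reported. Chemokine and receptor genes called numbered 1 with DESeq2 and 2 without its filter. Genes of the set higher at an unadjusted p under 0.05 (5 as reported) numbered 9 with DESeq2, 10 with DESeq2 or edgeR without the filter, 11 with limma-voom, 11 without KD-2 and NC-1, 2 with the mature neuron covariate and 0 with the leukocyte covariate. They ranged from 3 to 22 when 1 library was left out, counting any gene that passed the filter only in such a fit. Of these fits, the share of all genes at that threshold was computed only for edgeR as reported. Genes of the set lower (1 as reported) numbered 0 with the neuron covariate and with the replicate block, and ranged from 0 to 1 on leaving out 1 library. With the leukocyte covariate, 23 fold changes were above 0 and the median was -0.066. Genes with groups that did not overlap ranged from 20 to 36 on leaving out 1 library, a step that can only keep or raise this count. The numbers of the replicates did not pair the libraries (correlations of same-numbered deviations 0.31, 0.10 and -0.26). With the replicate block, 5 genes were higher and the median log2 fold change was 1.39, and no fold change named in the text changed direction. Of the chemokine genes and the 4 pathway lists, DESeq2 with the same filter put Cxcl13, Jak2, Rel and Nfkb1 (adjusted p = 0.0442, outside the rule for named genes) past the threshold. With the leukocyte covariate the log2 fold change changed sign for Cxcl5 (-0.50), Cxcl2 (-0.56), Cxcl10 (-1.02), Ccl20 (-0.33), Ccl28 (0.23), Ccl12 (-0.52), Ccl17 (-0.26), Cxcl16 (-0.081), Ccr10 (-0.51), Cxcr2 (-0.11), Cxcr3 (-0.14), Ccl25 (0.40), Cxcl3 (-0.31), Cxcl1 (-0.081) and Ikbkb (0.073). With the neuron covariate it did so for Ackr3 (0.16) and Ccl25 (0.15). Without KD-2 and NC-1 it did so for Ccl28 (0.026), Ccl12 (-0.059), Ccl17 (-0.0013), Ccr10 (-0.10), Ccl25 (0.28) and Ikbkb (0.031). On leaving out 1 library, the log2 fold change ranged from -0.15 to 0.052 for Cxcl12 (above 0 without KD library 1, KD library 2 or NC library 2), from -0.28 to 0.059 for Ackr3 (above 0 without KD library 2), from -0.097 to 0.50 for Ccl17, from -0.41 to 0.086 for Ccl25 and from -0.14 to 0.056 for Ikbkb (these 3 changed sign without NC library 1). The cause of these shifts was not tested.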

Other observations

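The marker lists not described above showed these summed levels. Basal cell markers, genes of the epithelial stem and progenitor layer, read 1279, 1669 and 939 CPM in KD and 242, 572 and 755 in NC, without overlap. Plasma cell markers read 7376, 9094 and 5133 CPM in KD and 1437, 5265 and 6551 in NC. Gland and secretory markers ranged from 15792 to 53744 CPM in KD and from 10803 to 84251 in NC, where NC library 1 was the high one and NC library 2 read 11123. Of these 8 genes, 5 were above 0 (median 0.43), and without NC library 1 all 8 were (median 1.19). Ciliated respiratory cell markers were above 0 for 4 of 7 genes (median 0.19). Sustentacular cell markers were above 0 for 3 of 8 (median -0.82) and immature olfactory neuron markers for 0 of 8 (median -1.33). Of the 8 immature neuron markers, 1 was lower at an unadjusted p under 0.05, against 9.25% of all tested genes, and 0 were called by edgeR. Mature neuron markers were above 0 for 0 of 15 (median -1.79).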
